A study of Homo sapiens with 4 samples.

Results

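The DUSP phosphatases of MAP kinases examined here are 10 genes, DUSP1, DUSP2, DUSP4, DUSP5, DUSP6, DUSP7, DUSP8, DUSP10, DUSP14 and DUSP16. They were selected by symbol, matched through Ensembl identifiers with the version removed, from the 19901 protein-coding genes of a TT-Seq count table, and all 10 had a row. TT-Seq sequences RNA made during a brief pulse of 4-thiouridine (4sU), a nucleoside that marks new transcripts for purification. The cells were HCT116, a colon cancer line, in which a single clone (KAP1_dTAG_CloneD5) carries KAP1, encoded by TRIM28, fused to a degron at its endogenous alleles. The clone was grown in serum without stimulation, and the parental line was not among the libraries. The control group received the vehicle DMSO for 8 h and the other group received 500 nM dTAG-13 for 8 h, a ligand through which the tagged protein is sent to the proteasome. Both groups were then labeled with 500 μM 4sU for 10 min, and each holds 2 replicate libraries of the same clone, so that p-values measure the spread between these cultures only.

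MAP kinases (ERK, JNK and p38) are switched on by phosphorylation of a threonine and a tyrosine in their activation loop, and dual-specificity phosphatases remove both phosphates. Many of the genes that encode them are transcribed in response to the kinases that their products inactivate, so that they form negative feedback loops, and DUSP1, DUSP2 and DUSP5 are classic serum-inducible immediate early genes (IEGs). DUSP1, DUSP2, DUSP4 and DUSP5 encode inducible nuclear enzymes, DUSP6 and DUSP7 cytoplasmic enzymes directed at ERK, and DUSP8, DUSP10 and DUSP16 enzymes that prefer JNK and p38. DUSP14 is an atypical member without the N-terminal domain by which the others dock to their kinases.

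Promoter sequences were taken from RefSeq (GRCh38.p14), as 250 bases before to 50 after an annotated start, and 8 of the 10 genes matched, with 9 promoters because DUSP10 has a pair of starts. DUSP4 and DUSP5 had no match. The promoters printed are those of DUSP16, which was upregulated, and of DUSP1 and DUSP8, the genes of the group in which a cAMP response element (CRE) was found. Capitals mark the motifs found.
DUSP1 (chr5:172771146-172771445, minus strand): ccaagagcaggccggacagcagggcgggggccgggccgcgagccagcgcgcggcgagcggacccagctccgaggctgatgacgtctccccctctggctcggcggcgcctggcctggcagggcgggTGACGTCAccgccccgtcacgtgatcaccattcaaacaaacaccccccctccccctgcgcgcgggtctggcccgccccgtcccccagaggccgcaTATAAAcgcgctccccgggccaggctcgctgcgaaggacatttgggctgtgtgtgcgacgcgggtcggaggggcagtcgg
DUSP8 (chr11:1572222-1572521, minus strand): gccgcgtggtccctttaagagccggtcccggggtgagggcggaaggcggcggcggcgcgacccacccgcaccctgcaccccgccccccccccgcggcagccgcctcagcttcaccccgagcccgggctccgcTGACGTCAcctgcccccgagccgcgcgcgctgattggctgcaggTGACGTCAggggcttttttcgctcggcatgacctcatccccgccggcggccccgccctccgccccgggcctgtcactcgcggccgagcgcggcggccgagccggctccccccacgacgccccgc
DUSP16 (chr12:12562814-12563113, minus strand): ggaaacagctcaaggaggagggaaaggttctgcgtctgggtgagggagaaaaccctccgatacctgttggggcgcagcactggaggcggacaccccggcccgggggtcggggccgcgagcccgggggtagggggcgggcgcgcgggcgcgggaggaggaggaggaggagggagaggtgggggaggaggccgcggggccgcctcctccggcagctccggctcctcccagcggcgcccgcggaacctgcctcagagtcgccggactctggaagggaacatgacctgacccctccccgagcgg

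The motifs searched on both strands were the CRE (TGACGTCA), the AP-1 site (TGANTCA), the ETS core (CCGGAA or TTCCGG), the TATA box (TATAAA or TTTATA) and the CArG box of serum response elements, and a TATA box can lie inside a CArG box. DUSP1 had a CRE that began 125 bases upstream of the start and a TATA box 30 bases upstream. DUSP8 had 2 CREs, which began 118 and 74 bases upstream, and DUSP16 had none of the 5 motifs. A CRE was present in 1.85% of all 35116 promoters in the table, and a TATA box in 11.5%. No AP-1 site, ETS core or CArG box was found in the 9 promoters of DUSP genes, against 7.71%, 17.2% and 1.29% of all promoters. These matches describe letters in the window and were not tested for binding. The RefSeq starts of DUSP8 and DUSP16 lie upstream of the intervals over which their reads were counted.

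Counts on genes summed to between 93105627 and 102314741 per library. A minimum of 50 counts in each of the 4 libraries left 12612 genes to test, among them all 10 DUSP genes (845 to 66861 counts). Values are given in CPM, that is, counts per 1000000 of the TMM-scaled library size, and the groups were compared with the quasi-likelihood test of edgeR (two-sided), and p-values were adjusted by Benjamini-Hochberg over those 12612 genes. A gene is called at an adjusted p under 0.05. The DMSO and dTAG libraries expressed EPCAM, CDH1, KRT8, KRT18, KRT19 and CDX2, while VIL1, CDX1 and LGALS4 of the same 9 epithelial markers had at most 31 counts. Of 8 markers of leukocytes, endothelium and fibroblasts, 6 fell under the count minimum, with PTPRC and LUM at no more than 1 count in any library. The other two, COL1A1 (420 to 538 counts) and VWF (141 to 217 counts), passed it and were not called by edgeR, with 0 at an unadjusted p under 0.05 and 0 called by DESeq2. TRIM28 RNA stood at 61.7 and 69.8 CPM with DMSO and 53.5 and 47.9 CPM with dTAG. It was called lower (log2 fold change -0.37 ± 0.092, standard error; edgeR, adjusted p = 0.019). This change in RNA does not check a degradation that acts on the protein. None of the 10 intervals overlaps another counted gene. Those of DUSP1, DUSP6, DUSP8 and DUSP16 overlap long noncoding RNAs on the opposite strand in GENCODE 44, and whether counting used the strand is not given in the sources used here.

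The basal levels of the DUSP genes spanned a wide range. Per kilobase of gene, introns included, the mean level with DMSO was 50.7 ± 0.292 CPM per kilobase (SD, n = 2) for DUSP6 and 26.2 ± 0.581 (SD, n = 2) for DUSP5, the 99.2th and 98.6th percentiles of the tested genes. The other inducible nuclear members followed, with 8.86 ± 1.09 for DUSP1, 5.55 ± 0.856 for DUSP2 and 4.29 ± 0.0926 for DUSP4. DUSP7 stood at 3.64 ± 0.792 and DUSP14 at 1.57 ± 0.0234 CPM per kilobase. The JNK and p38 phosphatases were lowest, with 0.775 ± 0.172 for DUSP8, 0.540 ± 0.0484 for DUSP16 and 0.376 ± 0.0178 for DUSP10, which is the 25.0th percentile. With DMSO the libraries of no 2 neighbours in this order overlapped, although DUSP4 and DUSP7 stood as close as 4.22 and 4.20 CPM per kilobase in single libraries. With dTAG the order of means stayed as it was, but the libraries of DUSP6 (51.2 and 42.2) and DUSP5 (48.7 and 33.0 CPM per kilobase) overlapped, as did those of DUSP2 (5.56 and 4.12) and DUSP4 (4.99 and 3.92). The order depends on the division by length. In CPM with DMSO, DUSP16 (47.6) stood above DUSP14 (37.2), DUSP7 (27.8), DUSP1 (27.5) and DUSP2 (12.6). Of DUSP14, DUSP7, DUSP1 and DUSP2, only DUSP2 stood below DUSP10 (15.3) and DUSP8 (13.9). The DMSO libraries of DUSP8 (11.7 and 16.0 CPM) and DUSP2 (11.3 and 14.0 CPM) overlapped. Exons covered from 6.2% (DUSP14) to 74.2% (DUSP2) of a gene, and the part of spliced RNA in these levels was not tested.

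**Figure D1:**
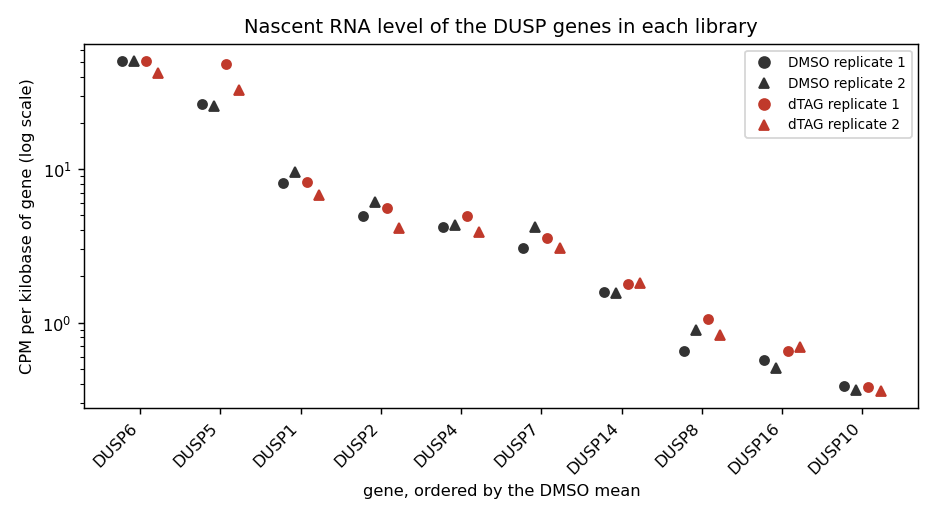
Level of each DUSP gene in each library, in CPM per kilobase of gene on a log scale, ordered by the mean of the DMSO libraries. DUSP6 leads at 50.7 and DUSP10 closes at 0.376 CPM per kilobase with DMSO, and with dTAG the points of DUSP5 and DUSP6 overlap, as do those of DUSP2 and DUSP4.

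Upon dTAG treatment, DUSP5 and DUSP16 were upregulated and the other 8 genes were not called. DUSP5 rose 1.56-fold and DUSP16 1.25-fold, and 0 of the 10 genes was downregulated by edgeR's quasi-likelihood test. Of all tested genes, 7.10% were called, with 3.44% higher and 3.66% lower, and 2 genes of 10 are too few to be set apart from that share. At an unadjusted p under 0.05, 3 members were higher and 0 lower, and DESeq2, which called 10.1% of tested genes, called 1 higher (DUSP16) and 0 lower. The median log2 fold change of the 10 genes was 0.02, against -0.015 for all tested genes, with 5 values above and 5 below 0. Both dTAG libraries lay above both DMSO libraries for DUSP5, DUSP14 and DUSP16, the groups overlapped for the other 7 genes, and among all tested genes the groups were apart in 58.8%, with dTAG above DMSO in 28.1%. A change in the number of transcribing cells and a change in new RNA per cell cannot be told apart in these pooled cultures.

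**Figure D2:**
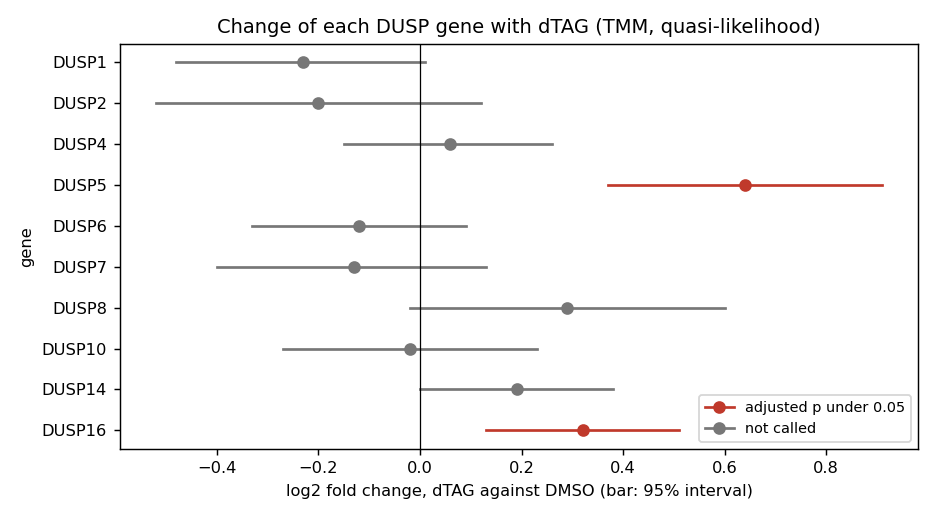
Log2 fold change of each DUSP gene with dTAG against DMSO, with its 95% interval from edgeR's quasi-likelihood fit. The intervals of DUSP5 (0.37 to 0.91) and DUSP16 (0.13 to 0.51) lie above 0 and both genes are called. The lower end of the interval of DUSP14 rounds to 0 (edgeR, unadjusted p = 0.048), and DUSP14 is not called after adjustment (adjusted p = 0.18).

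Among the inducible nuclear members, DUSP5 stood apart from DUSP1, DUSP2 and DUSP4, which were not called. DUSP5 (ENSG00000138166.5, chromosome 10 of hg38 from 110497838 to 110511544, plus strand, 4 exons) encodes a nuclear phosphatase selective for ERK. It stood at 365 and 354 CPM with DMSO and at 668 and 452 CPM with dTAG. Both dTAG values were higher than both DMSO values, but the dTAG libraries differed from each other by 1.48-fold. This was a log2 fold change of 0.64 ± 0.13 (standard error, n = 2 per group; edgeR's quasi-likelihood test, adjusted p = 0.0050). Of the 64 genes called upregulated at the 1.5-fold level (0.507% of tested genes), 1 is a member of the group, DUSP5. Without dTAG replicate 1 the log2 fold change was 0.34 (edgeR, adjusted p = 0.53), without dTAG replicate 2 it was 0.89, and DESeq2 gave 0.65 (adjusted p = 0.10). Without dTAG replicate 1 the fit called 1.09% of tested genes. Over the alternatives that kept all 4 libraries (edgeR and DESeq2), adjusted p-values ranged from 2.3e-34 to 0.47. The smallest came with an ERCC spike-in factor as a covariate. That factor was itself lower with dTAG (-0.2 and -0.56) than with DMSO (-0.048 and 0.8).

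DUSP1 (ENSG00000120129.5, chromosome 5 from 172768090 to 172771195, minus strand, 4 exons) encodes a nuclear phosphatase of p38, JNK and ERK. It stood at 25.1 and 29.9 CPM with DMSO and at 25.7 and 21.0 CPM with dTAG. One dTAG library lay between the DMSO libraries and the other below both. The log2 fold change was -0.23, with a 95% interval of -0.48 to 0.01 (edgeR, adjusted p = 0.21). DUSP2 (ENSG00000158050.4, chromosome 2 from 96143166 to 96145440, minus strand), which was first described in activated T cells, had 11.3 and 14.0 CPM with DMSO and 12.6 and 9.36 CPM with dTAG. Its dTAG libraries again fell one between and one below the DMSO libraries, and its log2 fold change was -0.20 (interval -0.52 to 0.12). Without DMSO replicate 1, DUSP1 and DUSP2 were both called lower at -0.35, in a fit that called 43.5% of tested genes. Without dTAG replicate 2 they stood at -0.10 and 0.00, so both values moved with the library left out. DUSP1 was also called lower in a block fit of all libraries with crossed replicate numbers (-0.24, edgeR, adjusted p = 0.036). That crossing was chosen after seeing the data.

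DUSP4 (ENSG00000120875.8, on the minus strand of chromosome 8) encodes a nuclear phosphatase that is, like DUSP6, a common marker of ERK output. Its CPM were 74.3 and 76.6 with DMSO and 87.9 and 69.1 with dTAG, so that the dTAG libraries lay on either side of the DMSO libraries. The log2 fold change was 0.06 (interval -0.15 to 0.26). The summed CPM of the 4 nuclear members were 476 and 474 with DMSO and 794 and 552 with dTAG, and DUSP5 made up most of this sum.

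Neither gene for the cytoplasmic ERK phosphatases was called. DUSP6 (ENSG00000139318.7, chromosome 12 from 89347232 to 89353271, minus strand, 3 exons) had 307 and 305 CPM with DMSO and 309 and 255 CPM with dTAG. The first dTAG library stood at the level of the DMSO libraries and the other was lower. The log2 fold change was -0.12 (interval -0.33 to 0.09), or 0.80-fold to 1.06-fold. DUSP7 (ENSG00000164086.9, chromosome 3 from 52048919 to 52056550, minus strand) had 23.5 and 32.0 CPM with DMSO and 27.2 and 23.5 CPM with dTAG. The lower library of each group stood at the same level to 3 digits, and the log2 fold change was -0.13 (interval -0.40 to 0.13). Without DMSO replicate 1, DUSP7 was called lower at -0.34, in the fit that called 43.5% of tested genes, and without DMSO replicate 2 it stood at 0.11.

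The JNK and p38 phosphatases gave 1 upregulated gene of 3. DUSP16 (ENSG00000111266.8, chromosome 12 from 12474210 to 12562383, minus strand, 7 exons) is the longest of the 10 genes at 88.17 kb and encodes a phosphatase that shuttles between nucleus and cytoplasm. It rose from 50.6 and 44.6 CPM with DMSO to 57.8 and 60.8 CPM with dTAG, with no overlap. This was a log2 fold change of 0.32 ± 0.091 (standard error, n = 2 per group; edgeR's quasi-likelihood test, adjusted p = 0.040). This call was lost in 7 of 15 alternative settings, where the log2 fold change stayed positive. Among these were upper-quartile normalization (edgeR, adjusted p = 0.086), the ERCC spike-in factor as a covariate (0.25) and the replicate block (0.13), a fit that called 2.70% of tested genes. Without dTAG replicate 1 or dTAG replicate 2 the log2 fold change was 0.36 or 0.28 (edgeR, adjusted p = 0.34 or 0.89), in fits that called 1.09% and 0.547% of tested genes.

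DUSP8 (ENSG00000184545.10, chromosome 11 from 1554044 to 1571920, minus strand, 7 exons), whose promoter with 2 CREs is printed above, had 11.7 and 16.0 CPM with DMSO and 19.0 and 14.9 CPM with dTAG. The lower dTAG library lay below the higher DMSO library. The difference on the log2 scale was 0.29 ± 0.15 (standard error; interval -0.02 to 0.60; edgeR, adjusted p = 0.21). Without DMSO replicate 2 the value was 0.54 and called, in a fit that called 11.9% of tested genes, and without DMSO replicate 1 it was 0.08. DUSP10 (ENSG00000143507.17, chromosome 1 from 221701424 to 221742176, minus strand) had 15.8 and 14.8 CPM with DMSO and 15.6 and 14.6 CPM with dTAG. DUSP10 encodes a phosphatase found in both nucleus and cytoplasm. Its groups overlapped and each replicate 1 stood slightly above its replicate 2, with a log2 fold change of -0.02 (interval -0.27 to 0.23).

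The atypical DUSP14 (ENSG00000276023.4, chromosome 17 from 37489831 to 37513501, plus strand) had 37.6 and 36.8 CPM with DMSO and 42.2 and 42.8 CPM with dTAG. Its groups did not overlap and its libraries agreed closely within each group. Its difference on the log2 scale, 0.19 ± 0.092 (standard error), did not pass adjustment (edgeR, unadjusted p = 0.048 and adjusted p = 0.18).

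The libraries treated with dTAG differed from each other at most DUSP genes. In 8 of the 10 genes dTAG replicate 1 was higher than dTAG replicate 2, against 50.9% of all tested genes, and the median log2 ratio between them was 0.29 for the DUSP genes and 0.0031 for all tested genes. For 7 genes, all those of the nuclear and the cytoplasmic ERK classes and DUSP8, this ratio lay above the 90th percentile of the tested genes. It was highest for DUSP5 (log2 ratio 0.56, 99.5th percentile), followed by DUSP2 (0.43) and by DUSP4 and DUSP8 (0.35 each). DUSP10 lay at 0.10, DUSP14 at -0.02 and DUSP16 at -0.07. Between the DMSO libraries, 5 genes were higher in replicate 1 and 5 in replicate 2, with a median log2 ratio of -0.02. The median over the 10 genes, relative to the DMSO mean, was 0.11 in the first dTAG library and -0.10 in the second, with a pooled SD of 0.10 between replicates.

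**Figure D3:**
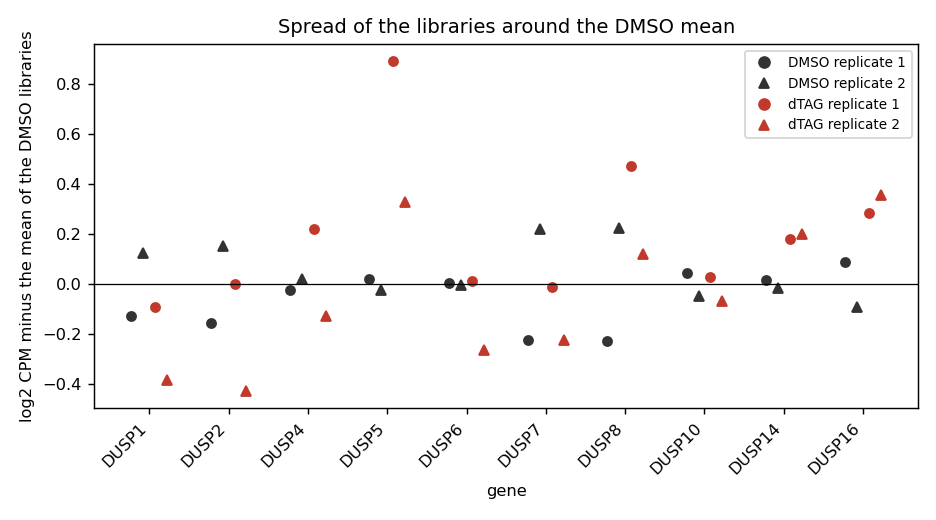
Log2 CPM of each DUSP gene in each library minus the mean of its DMSO libraries. Circles of dTAG replicate 1 sit above triangles of dTAG replicate 2 for 8 genes, by 0.56 at DUSP5, and the exceptions are DUSP14 and DUSP16.

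The log2 fold changes in this series varied with gene composition. Across the tested genes, which are not independent replicates, Spearman's rho was -0.56 with GC content and 0.42 with gene length, given here as a description. The median length of the DUSP genes was 15.7 kb, against 36.1 kb for all tested genes, with DUSP10 (40.75 kb) and DUSP16 (88.17 kb) above that, and 5 of 10 have a GC content over 50%, against a median of 44.9% for all tested genes. DUSP8 and DUSP2 have the highest GC content of the group (64.1% and 63.6%), and DUSP16 and DUSP10 the lowest (40.3% and 41.3%). Among tested genes within 2 percentage points of its own GC content, DUSP8 stood at the 99.1th percentile of the log2 fold changes (329 genes), DUSP5 at the 99.7th (1639 genes) and DUSP16 at the 94.3th (3037 genes). DUSP14 stood at the 90.7th percentile, DUSP4 at the 81.6th, DUSP2 at the 70.8th and DUSP7 at the 69.5th. DUSP1 stood lower, at the 32.2th, as did DUSP6 at the 30.8th and DUSP10 at the 28.4th. When each library's trends on GC content and then on gene length were removed, DUSP8 stood at 0.59 (edgeR, adjusted p = 0.0021), DUSP5 at 0.72, DUSP14 at 0.20 and DUSP16 at 0.18. These 4 genes were called in that fit, in which 17.7% of tested genes were. With the ERCC factor as a covariate DUSP8 stood at 0.76 and DUSP5 at 0.78, both called, in a fit that called 10.5% of tested genes. The part of GC content, length and spike-in amount in the changes was not tested.

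**Figure D4:**
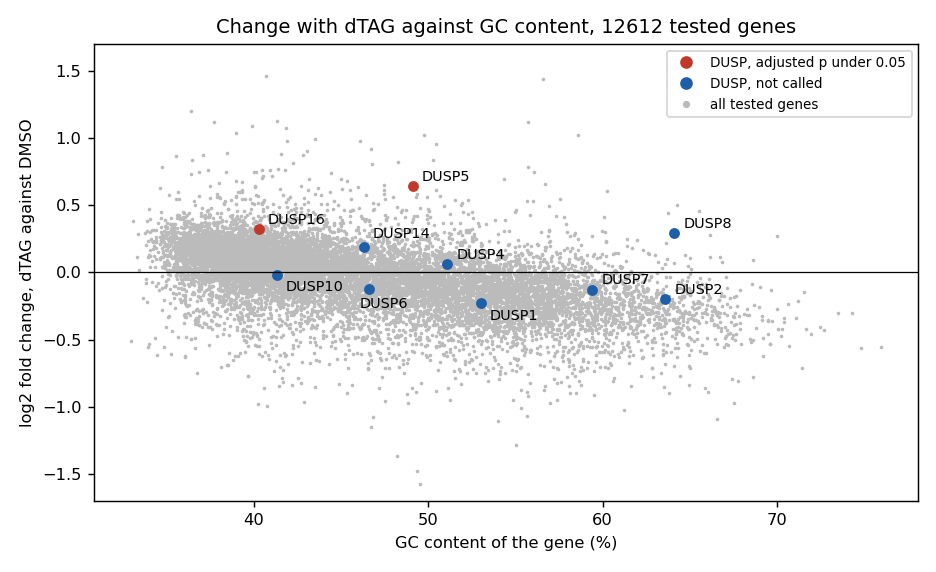
Log2 fold change with dTAG against DMSO for all 12612 tested genes (gray) against the GC content of the gene in percent, with the 10 DUSP genes marked. Gray points fall from left to right (rho -0.56), and DUSP5 and DUSP8 lie near the upper edge at their GC content.

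Ratios of counts within a library do not depend on how libraries are scaled. Such ratios were taken for 3 pairs, chosen after the values had been seen. Each sets a gene with a positive log2 fold change over one with a negative value, so that they are a description. An exact permutation test gave p = 0.333 for each pair, the smallest value that 2 against 2 libraries allow, and so decides nothing. DUSP5 over DUSP6, the most highly transcribed pair, was 1.19 and 1.16 with DMSO and 2.16 and 1.78 with dTAG, a log2 difference of 0.74. DUSP8 over DUSP2, which have like GC content, was 1.04 and 1.14 with DMSO and 1.50 and 1.59 with dTAG, a log2 difference of 0.50. DUSP16 over DUSP10, which have the lowest GC content, was 3.20 and 3.01 with DMSO and 3.70 and 4.17 with dTAG, a log2 difference of 0.34. The pooled SD between replicates of these log2 ratios was 0.14, 0.081 and 0.096. In each pair the first gene is also the longer, at 13.71 against 6.04 kb, 17.88 against 2.28 kb and 88.17 against 40.75 kb. The part of gene length in these ratios was not tested.

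The sum of the 10 genes was 922 and 923 CPM with DMSO, and 1265 and 963 CPM with dTAG. DUSP5 took 39.6% and 38.3% of this sum with DMSO and 52.8% and 47.0% with dTAG. Without DUSP5 the sums were 557 and 570 CPM with DMSO and 598 and 511 CPM with dTAG, so that the groups overlapped.

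DUSP5 was called in 12 of 15 alternative settings, against 8 of 15 for DUSP16 and 4 of 15 for DUSP8. DUSP4, DUSP6 and DUSP10 were called in 0 of 15. Crossing the replicate numbers in the block, a choice made after seeing the data, favored more calls by construction. It called DUSP1 lower and DUSP5, DUSP8 and DUSP16 higher in a fit that called 25.3% of tested genes. The 15 alternatives include this fit, so the counts above for DUSP5, DUSP16 and DUSP8 are raised by that choice. Every other count out of 15 alternatives given here includes it as well. Where library sizes were set to the totals of the ERCC spike-in RNAs, all 10 genes were positive, from 0.42 for DUSP1 to 1.24 for DUSP5, and the median of all tested genes moved to 0.63. Relative to that median, DUSP1, DUSP2, DUSP6, DUSP7 and DUSP10 remained lower.

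**Figure D5:**
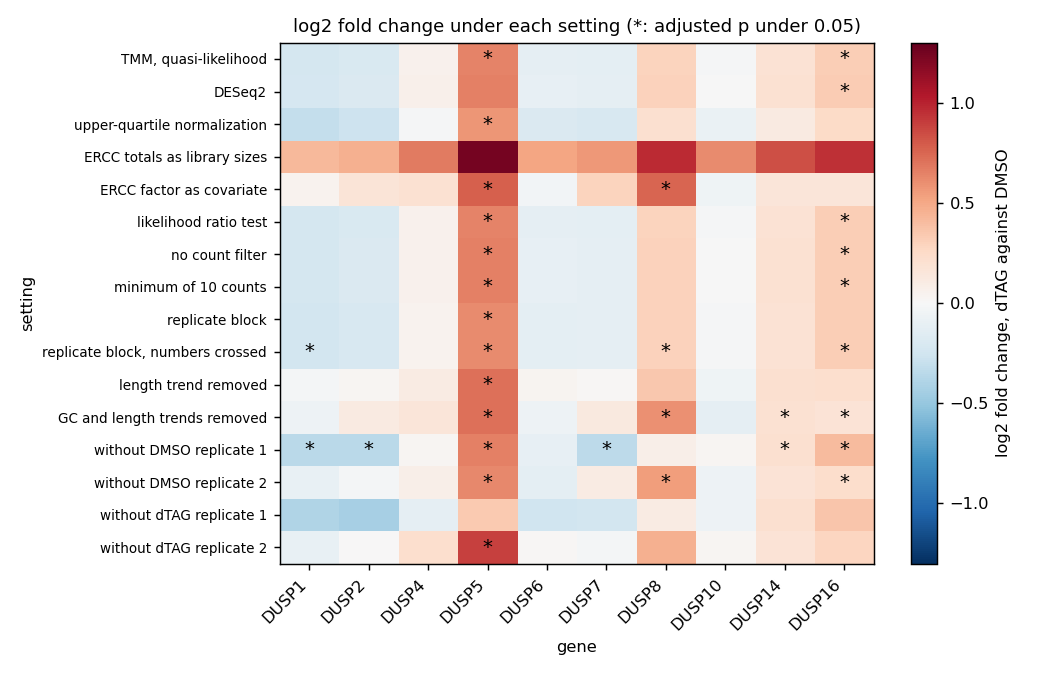
Log2 fold change (color) of each DUSP gene with dTAG against DMSO with TMM and the quasi-likelihood test (top) and under 15 alternative settings. Asterisks mark an adjusted p under 0.05, and they fall at DUSP5 in 12 of the 15 alternatives and at DUSP16 in 8. Both counts include the block with crossed replicate numbers, which was chosen after seeing the data.

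Of the wider DUSP family, 17 other genes of the list (including the pseudophosphatases STYX, STYXL1 and STYXL2) were in the table and 11 were tested. DUSP9, a cytoplasmic ERK phosphatase on the X chromosome and the remaining member of the DUSP6 and DUSP7 class, was downregulated, from 6.56 and 7.83 CPM with DMSO to 5.17 and 4.70 CPM with dTAG. On the log2 scale the change was -0.54 ± 0.16 (standard error; edgeR, adjusted p = 0.048), and it was called in 6 of 15 alternatives. DUSP9 has a GC content of 63.7%, and it was called neither with the length trend removed nor with GC and length trends removed. The other 10 tested genes were not called by edgeR, 2 of the 11 were lower at an unadjusted p under 0.05, and DESeq2 called 0 higher and 2 lower, DUSP9 and DUSP23. DUSP23, an atypical small phosphatase named here after its values were seen, had 5.76 and 8.13 CPM with DMSO and 4.98 and 4.48 CPM with dTAG (log2 fold change -0.55; edgeR, adjusted p = 0.061). The median log2 fold change of the 11 genes was -0.05. Among MAP kinase phosphatases outside the family, PPM1B, a metal-dependent serine and threonine phosphatase, rose from 110 and 94.4 to 129 and 146 CPM. This log2 fold change of 0.43 ± 0.093 (standard error, edgeR, adjusted p = 0.0084) was called in 12 of 15 alternatives. PPM1B was 1 of 3 tested genes of that list.

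The kinases that DUSP proteins act on, and those above them, mostly were not called. Of 14 MAP kinase genes, 0 were called by edgeR's quasi-likelihood test, with 1 higher and 3 lower at an unadjusted p under 0.05, and DESeq2 called 1 higher and 0 lower. Of 7 MAP kinase kinase genes, MAP2K6, which encodes an activator of p38, was downregulated, from 3.39 and 3.50 CPM to 1.41 and 2.06 CPM. This log2 fold change of -0.99 ± 0.22 (standard error; edgeR, adjusted p = 0.010) was called in 13 of 15 alternatives. Of 20 tested MAP3K and RAF genes, 2 were upregulated and 1 was downregulated. MAP3K14, the kinase of noncanonical NF-kB signaling, rose from 125 and 131 to 189 and 165 CPM. This log2 fold change of 0.47 ± 0.090 (standard error, edgeR, adjusted p = 0.0032) was called in 12 of 15 alternatives. MAP3K20, which senses ribosome stress, rose from 161 and 138 to 180 and 196 CPM (0.33 ± 0.093, called in 8 of 15 alternatives). MAP3K12 fell from 24.2 and 26.3 to 19.1 and 17.1 CPM (-0.48 ± 0.11, called in 12 of 15 alternatives), and its interval overlaps that of PCBP2.

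Of 14 genes for RAS activation and scaffolds, 0 were called by edgeR's quasi-likelihood test, with 0 higher and 1 lower at an unadjusted p under 0.05, and DESeq2 called 0. Among 9 genes for transcription factors regulated by ERK, ELK3 and ETV5 were upregulated. ELK3, a ternary complex factor that binds with SRF at serum response elements, rose from 114 and 116 to 152 and 145 CPM. Its log2 fold change was 0.37 ± 0.083 (standard error, edgeR, adjusted p = 0.011), called in 11 of 15 alternatives. ETV5, an ETS factor that is often transcribed together with DUSP6 as ERK output, rose from 104 and 97.2 to 121 and 139 CPM. This was also 0.37 (± 0.089, edgeR, adjusted p = 0.016), called in 11 of 15 alternatives. The interval of ETV5 overlaps that of DGKG. Neither ELK3 nor ETV5 was called with the replicate block or with ERCC totals as library sizes. The median log2 fold change of these 9 genes was 0.13. Together with the shares above of 3.44% and 3.66% among all tested genes, these counts describe the lists and set none of them apart.

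The genes whose pattern over the 4 libraries lay closest to that of DUSP5, by Euclidean distance of the log2 CPM centered on the DMSO mean among 12602 genes, were FOSB, CDH23 and RFESD, at distances of 0.19, 0.23 and 0.26. FOSB, an AP-1 subunit gene, had 5.67 and 6.15 CPM with DMSO and 10.5 and 6.79 CPM with dTAG. FOSB was not called (log2 fold change 0.55, edgeR, adjusted p = 0.064), and as at DUSP5 the higher of its dTAG libraries was replicate 1. CDH23 and RFESD were below 5 CPM in all libraries. With 4 libraries such likeness is a description.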

How the data were processed

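Per the labels and the methods of the study, the authors ran FastQC 0.11.8 and Trim Galore 0.6.4, aligned reads to hg38 by STAR, and used featureCounts of Subread 1.6.3 on the whole span of protein-coding genes plus the 92 ERCC RNAs, which had been added to purified nascent RNA. The authors deposited unnormalized counts for 4 libraries. File starts count from 0, so 1 was added. Symbols were matched for 19784 of 19901 genes.

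Counts were analyzed with edgeR 4.0.16 and DESeq2 1.42.0 in R 4.3.3. The filter of the study, 50 counts in each of 4 libraries, was applied. TMM factors were 0.970 to 1.05. A standard error was obtained from the quasi-likelihood F statistic, as |log2 fold change| over its square root. The study names a spike-in normalization without its function or factors, so libraries were scaled by TMM. Alternatives were 2 spike-in scalings, upper-quartile scaling, DESeq2, the likelihood ratio test, other filters, a replicate block, removed length and GC trends, and leaving out each library. SDs are over 2 libraries, and precision is limited by these replicates more than by counts. Intervals are 95%. The fits, except those with other filters, crossed replicate numbers or a library left out, were tested on simulated data. The simulated counts held no GC or length trend, so they do not show how such trends act on the fits.

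Members and lists were chosen with earlier results of these data known. Genes named are the members, called genes of the fixed lists, TRIM28 and the 3 genes nearest in pattern to the member with the largest change.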

Additional observations from a re-analysis of the deposited data

How the results depend on the processing

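Under the alternatives, DUSP5 kept a positive log2 fold change in all 15 and its call in 12. Both counts include the block with crossed replicate numbers, which was chosen after seeing the data. The number of genes called, 895, was 0 with ERCC totals as library sizes (edgeR, 229 at an unadjusted p under 0.05), 1593 with the likelihood ratio test, 1417 without a count filter, 340 with the replicate block and 2227 after removal of GC and length trends. Of the 895, 434 were higher and 461 lower, against 255 higher and 869 lower with upper-quartile normalization, and 799 higher and 527 lower with the ERCC factor. Leaving out each library in turn, with a lone library assumed to vary like the other group, gave 69 to 5491. Of the DUSP genes, 2 were called, against 1 with DESeq2, upper-quartile normalization, the replicate block or the length trend removed, 0 with ERCC totals, 4 with GC and length trends removed, and 0 to 6 without single libraries. Their median, 0.02, was 0.65 with ERCC totals, 0.17 with the ERCC factor, 0.14 with GC and length trends removed, and -0.10 to 0.11 without single libraries. The deviations of same-numbered libraries correlated at -0.24 over genes, which cannot show whether the numbers pair the libraries. With the replicate numbers crossed, a choice made after seeing that value, 3190 genes and 4 DUSP genes were called. More calls were built into that choice, so these counts lend no weight to any gene.

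Signs turned with ERCC totals for DUSP1 (0.42), DUSP2 (0.46), DUSP6 (0.51), DUSP7 (0.56) and DUSP10 (0.61), by construction of the scaling, which moved all genes. They turned with the ERCC factor for DUSP1 (0.05), DUSP2 (0.17) and DUSP7 (0.29), with the length trend removed for DUSP2 (0.03), DUSP6 (0.04) and DUSP7 (0.02), with GC and length trends removed for DUSP2 (0.12) and DUSP7 (0.13), and with upper-quartile normalization for DUSP4 (-0.02). Without single libraries the ranges were -0.43 to 0.00 for DUSP2, -0.12 to 0.22 for DUSP4, -0.26 to 0.02 for DUSP6, -0.34 to 0.11 for DUSP7 and -0.07 to 0.03 for DUSP10. The cause was not tested.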
